A study of Mus musculus with 6 samples.

Results

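Libraries of sorted splenic CD4 T cells held a small number of cells rich in macrophage RNA. These were followed through 10 of the 32285 genes measured, chosen by symbol: the complement genes C1qa, C1qb and C1qc, the haem and iron genes Hmox1 and Slc40a1, and Vcam1, Apoe, Cd5l, Fcer1g and Lyz2. Their UMIs, tags that each mark 1 captured RNA molecule, were counted in cells with at least 3 summed C1qa, C1qb and C1qc UMIs, called C1q+ cells, and in Cd3e+ cells below that limit, meaning cells with at least 1 UMI of the T cell gene Cd3e. Of 29738 kept cells, 190 were C1q+ and 24570 were Cd3e+ below the limit.

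The cells came from spleens of mice of strain C57BL6/J, 3 H2-O KO and 3 of genotype H2-O WT, unimmunized, 8 weeks old by the labels and older by the study's methods. H2-O is a class II peptide editing chaperone of the thymic medulla, B cells and some dendritic cells. The study proposes that it works with the chaperone H2-M in choosing well-fitting peptides, and states that this conflicts with the original model. The knockout does not target the genes described. Live cells were sorted as CD3+ CD4+ B220- NK1.1- by the labels, and each mouse gave 1 library of 10x Genomics 5' scRNA-seq, named KO1 to KO3 and WT1 to WT3 by genotype and replicate number. No macrophage marker was part of that gate.

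Macrophages of the splenic red pulp engulf aged red blood cells, degrade haem and return its iron to the blood. Hmox1 encodes haem oxygenase 1, which opens the haem ring and frees the iron, and Slc40a1 encodes ferroportin, the transporter through which iron leaves the cell. C1qa, C1qb and C1qc encode the 3 chains of C1q, the recognition molecule of the classical complement pathway, which tissue macrophages secrete and which also tags dying cells for uptake. Vcam1 encodes an adhesion molecule carried by red pulp macrophages, Cd5l a secreted macrophage protein, Apoe a lipid carrier, Fcer1g the signalling chain shared by several Fc receptors and Lyz2 a lysozyme of macrophages, monocytes and neutrophils.

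C1qa, C1qb and C1qc are neighbours on chromosome 4 of GRCm38, all on the reverse strand, within 18675 bases from 136880129 to 136898803. C1qb (ENSMUSG00000036905) lies from 136880129 to 136886187, C1qc (ENSMUSG00000036896) from 136889804 to 136893065 and C1qa (ENSMUSG00000036887) from 136895917 to 136898803. Hmox1 (ENSMUSG00000005413) lies on chromosome 8 from 75093621 to 75100589 and Slc40a1 (ENSMUSG00000025993) on chromosome 1 from 45908068 to 45926523. Vcam1 (ENSMUSG00000027962) lies on chromosome 3 from 116109949 to 116129688 and Cd5l (ENSMUSG00000015854) on the same chromosome from 87357881 to 87371073. Apoe (ENSMUSG00000002985) lies on chromosome 7 from 19696109 to 19699188, Fcer1g (ENSMUSG00000058715) on chromosome 1 from 171229572 to 171234365 and Lyz2 (ENSMUSG00000069516) on chromosome 10 from 117277331 to 117282321.

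The 250 bases before the RefSeq start of C1qb, C1qc and Cd5l are shown because these were the members with promoter sequence whose UMIs were most concentrated in C1q+ cells. They were read from RefSeq, build GRCm38.p6, 5′ to 3′ on the strand of the gene. Capitals mark GAGGAA or its reverse complement TTCCTC, the core of the PU box to which the macrophage factor PU.1 is known to bind.
C1qb, chr4:136886201-136886450, reverse strand: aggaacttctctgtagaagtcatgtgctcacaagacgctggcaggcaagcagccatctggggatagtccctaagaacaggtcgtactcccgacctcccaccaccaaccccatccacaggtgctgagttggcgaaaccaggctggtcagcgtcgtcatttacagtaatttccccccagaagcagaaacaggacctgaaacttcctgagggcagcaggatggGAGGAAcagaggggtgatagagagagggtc
C1qc, chr4:136892915-136893164, reverse strand: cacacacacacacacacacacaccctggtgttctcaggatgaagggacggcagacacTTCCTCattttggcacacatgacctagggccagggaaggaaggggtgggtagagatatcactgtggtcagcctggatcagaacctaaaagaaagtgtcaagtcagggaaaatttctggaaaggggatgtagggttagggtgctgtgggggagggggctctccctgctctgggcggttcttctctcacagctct
Cd5l, chr3:87357631-87357880, forward strand: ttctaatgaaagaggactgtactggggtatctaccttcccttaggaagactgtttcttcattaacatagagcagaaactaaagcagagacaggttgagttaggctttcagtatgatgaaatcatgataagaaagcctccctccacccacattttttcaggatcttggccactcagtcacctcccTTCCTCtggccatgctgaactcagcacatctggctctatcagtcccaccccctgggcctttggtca
The RefSeq start of C1qc, at 136892914, lies 151 bases inside the gene as annotated above, so that window reaches into the annotated gene, while that of C1qb lies 13 bases outside its gene. Each window held 1 match, 30 bases before the RefSeq start in C1qb, 193 in C1qc and 66 in Cd5l. Among all 32851 windows of this length, 23.3% held a match on either strand, so a match is common and describes only the letters. RefSeq windows were matched for 6 of the 10 genes, and those of Fcer1g and Lyz2 held no match. The AP-1 site TGAGTCA, searched on both strands, was in none of the members' windows and in 4.46% of all windows.

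Depth ranged from 9973193 to 40237962 UMIs over the called cells of each library. H2-Oa, the knocked-out gene, stood at 4.54, 3.53 and 3.79 CPM (UMIs per 1000000 UMIs) in the kept cells of KO1 to KO3 and at 5.29, 6.29 and 8.42 CPM in WT1 to WT3, so the H2-O KO libraries were lower without overlap, and some H2-Oa RNA was still counted in them. Cells poor in ribosomal protein RNA (less than 10% of their UMIs) made up 2.12% to 10.1% of the Cd3e+ cells below the limit in H2-O KO and 12.7% to 29.0% in H2-O WT. Between 21 and 99 cell barcodes were shared by any pair of the 6 libraries, and no barcode was C1q+ in 2 libraries. Haemoglobin UMIs in Cd3e+ cells numbered 1404 in KO3 and between 1 and 36 in each of the others.

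C1q+ cells made up 0.487%, 0.704% and 0.786% of the kept cells in KO1 to KO3, from 38, 27 and 48 cells. In WT1 to WT3 they made up 0.873%, 0.497% and 0.660%, from 22, 23 and 32 cells. The genotypes overlapped. H2-O KO mice had a mean share of 0.659% ± 0.154 (SD, n = 3) and H2-O WT mice 0.677% ± 0.188 (SD, n = 3). The difference, H2-O KO less H2-O WT, was -0.0179 percentage points, with p = 0.9 in a two-sided exact permutation test, and 0.1 is the smallest p that 3 mice against 3 allow. The 95% Clopper-Pearson intervals of the shares, which cover counting error only, ran from 0.345% to 0.668% in KO1 and from 0.548% to 1.32% in WT1. The sign of the difference depended on the cells counted, with 0.0892 percentage points in the other direction over all called barcodes.

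C1q+ cells carried the markers of red pulp macrophages. All 11 genes of that marker list had UMIs in them, among them Csf1r, the receptor for macrophage colony-stimulating factor, with 143 UMIs, Cd68, a lysosomal protein of macrophages, with 114, and Spic, the transcription factor of red pulp macrophages, with 79. Adgre1, which encodes F4/80, had 64 UMIs and Cd163, a haemoglobin scavenger receptor, 10. Of the genes of marginal zone and metallophilic macrophages, Marco had 16 UMIs, Siglec1 had 5 and Cd209b had 0. Defining genes of other myeloid cells were sparse. The monocyte list had 13 UMIs over 4 of 6 genes, led by Plac8 with 6 and Ly6c2 with 4, the neutrophil list 1 UMI, of Csf3r, and the dendritic cell list 3 UMIs over 2 of 7 genes, Itgax and Clec10a. No platelet gene of 3 had a UMI, and Pecam1 was the only one detected of 5 endothelial and stromal genes. All 11 red pulp macrophage genes also had UMIs in the Cd3e+ cells below the limit. Their summed level was 1279 to 4905 CPM over the libraries in C1q+ cells and 5.55 to 10.6 CPM in those Cd3e+ cells. The markers thus bore out the macrophage label, and part of the C1q+ cells also carried T cell genes.

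T cell RNA lay in many C1q+ cells. A Cd3e UMI was found in 72 of the 190, and these had a median of 4219 UMIs of all genes, beside medians of 4104 to 5406.5 UMIs for the Cd3e+ cells below the limit in the 6 libraries. In WT1 and WT3 their medians were lower, at 624 UMIs over 3 cells and 1074 over 13. The 118 without a Cd3e UMI had a median of 772.5 UMIs. All 7 T cell genes had UMIs in C1q+ cells, including Cd3e with 243 and Cd3d with 223. Of the B cell list 3 of 6 genes had UMIs, among them Ighm with 96 and Cd79b with 3, with none of Cd79a and Igkc. The NK cell list had 20 UMIs over all 4 genes, of them Prf1 8 and Klrd1 6, and the erythroid list 121 over all 5 genes, of them Hba-a1 53 and Hbb-bs 34. The erythroid list stood at 1307 CPM in KO3, 355 CPM in WT2 and no more than 127 CPM in any other library.

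**Figure D1:**
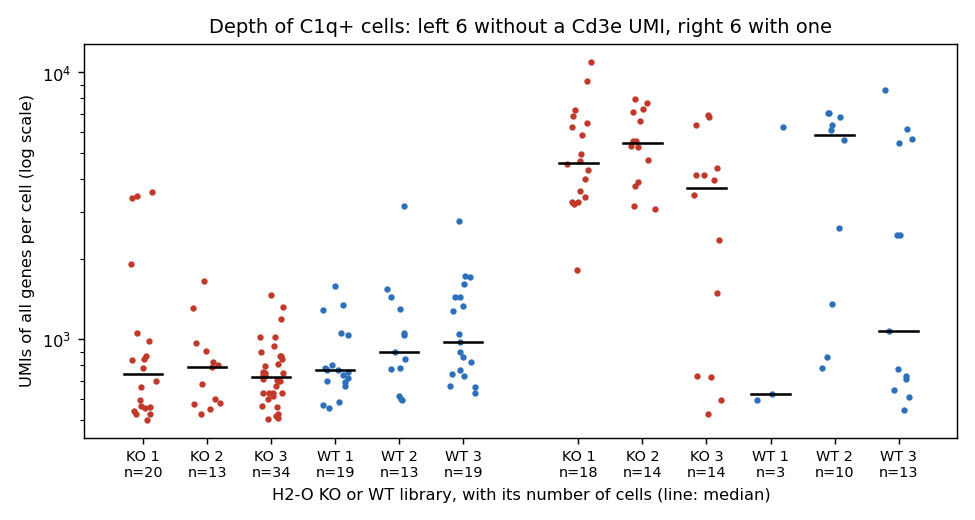
Number of UMIs of all genes in each C1q+ cell (log scale), 1 point per cell, by library, for cells without a Cd3e UMI (left) and with one (right), with the median as a line. Medians without Cd3e lay between 724 and 981 UMIs in all 6 libraries, while medians with Cd3e ranged from 624 (3 cells, WT1) to 5827.5.

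The C1q genes chose these cells, and their values there are given as a description. In KO1 to KO3, C1qa had 326, 244 and 229 UMIs per 100 C1q+ cells, and in WT1 to WT3 it had 255, 361 and 216. C1qb had 316, 319 and 250 in KO1 to KO3 and 268, 491 and 216 in WT1 to WT3. C1qc had 321, 281 and 202 in KO1 to KO3 and 255, 422 and 175 in WT1 to WT3. WT2 was the highest library and WT3 the lowest for all 3 genes, with the H2-O KO libraries between them. All 3 chains were detected together in 132 of the 190 cells (69.5%).

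The iron genes were found in most C1q+ cells. Hmox1 had 334, 441 and 271 UMIs per 100 C1q+ cells in KO1 to KO3 and 423, 583 and 213 in WT1 to WT3, and it was detected in 77.9% of the C1q+ cells. Slc40a1 had 137, 144 and 123 in KO1 to KO3 and 177, 204 and 144 in WT1 to WT3, and was detected in 62.1%. For both genes the H2-O WT libraries spread more widely than the H2-O KO libraries and overlapped with them. Of the 190 cells, 173 (91.1%) had a UMI of Hmox1, Slc40a1 or Vcam1.

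Vcam1 had 116, 119 and 100 UMIs per 100 C1q+ cells in KO1 to KO3 and 241, 226 and 93.8 in WT1 to WT3. WT1 and WT2 stood above every H2-O KO library, and WT3 below them. Apoe had 292, 193 and 227 in KO1 to KO3 and 218, 439 and 175 in WT1 to WT3. Per cell Cd5l varied least, with 57.9, 51.9 and 47.9 in KO1 to KO3 and 54.5, 60.9 and 50 in WT1 to WT3. These values rest on 12 to 23 UMIs per library, and in CPM Cd5l ranged from 160 to 507. Fcer1g had 255, 274 and 235 in KO1 to KO3 and 227, 378 and 144 in WT1 to WT3.

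Lyz2 stood apart from the other 9 genes. It had 31.6, 11.1 and 47.9 UMIs per 100 C1q+ cells in KO1 to KO3 and 0, 122 and 6.25 in WT1 to WT3, and only 15 of the 190 cells had a UMI of it. The other 6 genes outside C1q were each detected in at least 63 of the 190.

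**Figure D2:**
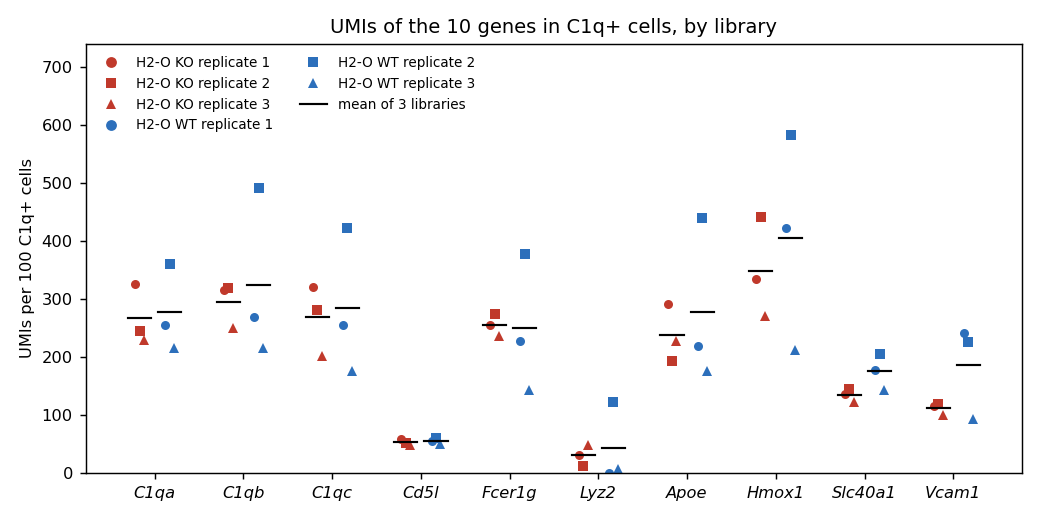
UMIs per 100 C1q+ cells (linear axis from 0) of each of the 10 genes in the 6 libraries, with the mean of 3 libraries per genotype as a line. WT2 reached 583 UMIs per 100 cells for Hmox1 and 491 for C1qb, and the genotypes overlapped for every gene.

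Cells with more C1q UMIs held more of the genes outside C1q, other than Lyz2, below the limit as well as above it. This is a description over cells pooled from 6 libraries, and cells of a library share its free RNA. Hmox1 had 1.79 UMIs per 100 cells in the 29351 cells without a C1q UMI, 54.5 in the 145 cells with 1, 185 in the 52 cells with 2, 194 in the 32 cells with 3 and 754 in the 13 cells with 20 or more. Slc40a1 had 0.191, 12.4, 42.3, 71.9 and 331 in the same cells, and Cd5l 0.0204, 2.07, 11.5, 25.0 and 131. Just outside and just inside the limit Hmox1 thus stood at 185 and 194, while Fcer1g had 57.7 UMIs per 100 cells at 2 C1q UMIs and 141 at 3. Depth moved with the class: the median was 4436 UMIs of all genes at 1 C1q UMI, 2141.5 at 2 and 1057 at 3, and 81.4%, 61.5% and 56.3% of the cells had a Cd3e UMI. Its part in these values was not tested. Lyz2 had 5.88, 12.4, 61.5 and 6.25 UMIs per 100 cells at 0, 1, 2 and 3 C1q UMIs, then 25.0 at 4, 24.7 at 5 to 9, 32.5 at 10 to 19 and 208 at 20 or more. It was thus also highest in the last class, without an even gradation below it.

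**Figure D3:**
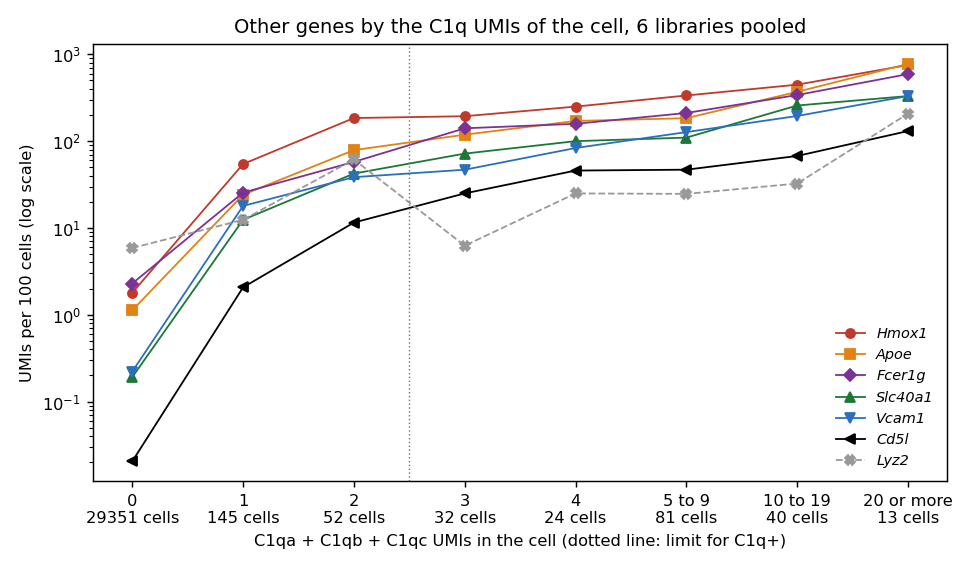
UMIs per 100 cells (log scale) of the 7 genes outside C1q, against the summed C1qa, C1qb and C1qc UMIs of the cell, with the number of cells under each class and a dotted line at the limit. From 0 to 1 C1q UMIs Hmox1 went from 1.79 to 54.5 UMIs per 100 cells, and Lyz2, dashed, was at 61.5 with 2 C1q UMIs and at 6.25 with 3.

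Pooled over the 6 libraries, C1q+ cells with Cd3e held less of every member than those without, both per cell and per UMI. C1qb had 2.28 UMIs per cell in the 72 cells with Cd3e and 3.42 in the 118 without, which came to 538 and 3559 CPM. For Hmox1 the values were 2.25 and 4.31 UMIs per cell, or 531 and 4495 CPM, and for Slc40a1 0.972 and 1.80 UMIs per cell, or 229 and 1872 CPM. CPM divides by all UMIs of the cells, of which those with Cd3e held more. Within libraries the CPM was lower in the cells with Cd3e in all 6 for every member except Lyz2, which had 0 UMIs in both kinds in WT1. Per cell that held in all 6 libraries for Hmox1 and Vcam1 and not for the others, as in WT1, where C1qa had 333 UMIs per 100 cells with Cd3e and 242 without, and Apoe 400 and 189. No doublet caller was run, and the part of doublets in these cells was not tested.

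The share of the kept UMIs of a gene that lay in C1q+ cells gave a common scale for the members. C1q+ cells were 0.639% of the kept cells and held 0.334% of all UMIs. They held a median over 6 libraries of 87.9% of the UMIs of C1qa, 87.3% of C1qb and 87.9% of C1qc, which follows from the rule. The share was 84.8% for Cd5l, 78.4% for Slc40a1, 69.9% for Vcam1, 53.5% for Apoe, 53.1% for Hmox1, 40.7% for Fcer1g and 1.39% for Lyz2. The lowest and highest library of Slc40a1 were at 59.0% and 85.2%, those of Vcam1 at 44.8% and 89.8% and those of Hmox1 at 33.8% and 63.3%, so these 3 genes overlapped, while Cd5l, from 77.8% to 100%, lay above every library of Hmox1, Apoe and Fcer1g. More than 9 in 10 UMIs of Lyz2 therefore came from other cells.

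Of the 1177 genes with at least 50 UMIs in C1q+ cells, 10 others had the largest such shares. They were Fcna, which encodes a ficolin that starts the lectin pathway of complement (83.1%), Mrc1, the mannose receptor (77.4%), Adgre1 (76.9%), Clec4n, a receptor for fungal sugars (71.8%), Treml4 (71.3%), the growth factor gene Igf1 (68.2%), Spic (58.6%), Aif1 (57.7%), Trf, which encodes the iron carrier transferrin (56.8%), and Hpgd, an enzyme that breaks down prostaglandins (56.5%). Fcna ranged from 59.5% to 88.7% over the libraries and overlapped with every C1q gene. Likeness here is the share of UMIs over 6 libraries and nothing else.

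**Figure D4:**
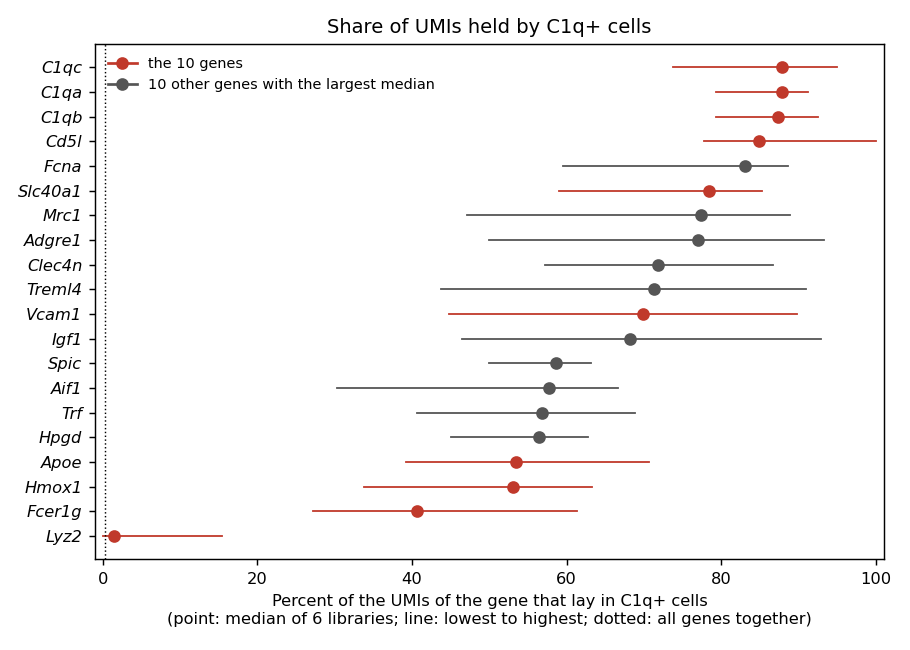
Percent of the kept-cell UMIs of each gene that lay in C1q+ cells, as the median of 6 libraries (point) with the lowest and highest library (line), for the 10 genes (red) and the 10 others with the largest median (grey). The dotted line marks the 0.334% of all UMIs held by C1q+ cells, and Lyz2, at 1.39%, was the only member near it.

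The study's question of what H2-O does to the cells was put to the C1q+ cells by summing their UMIs per library. With edgeR's quasi-likelihood test over 921 genes, 1 gene (0.109%) was called between genotypes at a Benjamini-Hochberg adjusted p under 0.05, and 97 had an unadjusted p under 0.05. None of the 9 members tested was called, and Lyz2 was under the filter on low counts. The 9 include the C1q genes, which chose the cells. DESeq2 also called 1 gene, and no member. On simulated counts with the spread of all C1q+ cells the edgeR test recovered 54.9% of the 162 genes changed 2-fold and tested. The called gene was Igfbp4, which encodes a binding protein of insulin-like growth factors, with a log2 fold change of 2.15 (SE 0.32, adjusted p = 0.00462, edgeR). It was named after its value was seen, and the part of T cell RNA in its value was not tested. Without KO2 no gene was called (59 at an unadjusted p under 0.05), without KO3 6 were, without WT1 2, and without WT2 the 1 gene called was lower in H2-O KO (edgeR).

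The 6 members outside C1q that were tested had negative log2 fold changes, from -0.50 for Fcer1g (SE 0.33, edgeR adjusted p = 0.673) to -1.39 for Vcam1 (SE 0.43, edgeR adjusted p = 0.271). Hmox1 stood at -0.87 (SE 0.34, edgeR adjusted p = 0.370) and Slc40a1 at -0.98 (SE 0.34, edgeR adjusted p = 0.311). Their median was -0.79, beside 0.020 over all genes tested, a median that plain library totals moved to 0.14. C1qa (-0.64), C1qb (-0.69) and C1qc (-0.68) chose these cells, and their values are a description only. In CPM, Hmox1 was at 1083, 1359 and 1788 in KO1 to KO3 and at 3933, 2265 and 1173 in WT1 to WT3, and the genotypes overlapped. These values are relative to all UMIs of the same cells, which include T cell RNA. The summed level of the 7 T cell genes ranged from 2930 to 3667 CPM in H2-O KO and from 1438 to 2709 CPM in H2-O WT, without overlap, and 42.8% ± 12 (SD, n = 3) of the C1q+ cells had a Cd3e UMI in H2-O KO against 32.6% ± 16.5 (SD, n = 3) in H2-O WT. By library that share was 47.4%, 51.9% and 29.2% in KO1 to KO3 and 13.6%, 43.5% and 40.6% in WT1 to WT3, which overlapped, and none of the 7 T cell genes was called. The part of T cell RNA in the members' values was not tested. The 11 red pulp macrophage genes summed to between 1279 and 1926 CPM in H2-O KO and between 2122 and 4905 CPM in H2-O WT. The 4 NK cell genes summed to between 41.3 and 102 CPM in H2-O KO and between 0 and 16.9 CPM in H2-O WT. These values rest on 20 UMIs over all libraries. In C1q+ cells without Cd3e the list had 10 UMIs, all of them in KO1. Of the marker lists, the T cell, red pulp macrophage and NK cell lists did not overlap between genotypes in C1q+ cells. All lists are shares of the same UMIs, so their values are not independent of each other. The haem and iron list overlapped, at 10934 to 17565 CPM in H2-O KO and 13182 to 29981 CPM in H2-O WT. So did the complement list (559 to 757 and 725 to 1311 CPM) and the B cell list (234 to 297 and 121 to 287 CPM). How many of all genes, or of other lists, separate the genotypes was not counted, so the lists without overlap are a description only. In C1q+ cells without Cd3e the red pulp macrophage genes overlapped, at 4245 to 8374 CPM in H2-O KO and 4289 to 6151 CPM in H2-O WT.

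In C1q+ cells without Cd3e the log2 fold changes of Cd5l (0.13) and Fcer1g (0.34) were positive, while Hmox1 (-0.036), Slc40a1 (-0.23), Vcam1 (-0.67) and Apoe (-0.11) stayed negative. edgeR tested 244 genes there and called none, with 14 at an unadjusted p under 0.05. C1qa (0.052), C1qb (0.25) and C1qc (0.18), which chose the cells, also changed sign. In these cells C1qb stood at 3208, 5955 and 3824 CPM in KO1 to KO3 and at 3030, 4648 and 2122 CPM in WT1 to WT3. Hmox1 stood at 3721, 8001 and 3901 CPM in KO1 to KO3 and at 5318, 6561 and 2348 CPM in WT1 to WT3. Vcam1 stood at 1069, 1954 and 1568 CPM in KO1 to KO3 and at 2906, 2529 and 1129 CPM in WT1 to WT3. KO2 was the highest library for both C1qb and Hmox1, and the genotypes overlapped for all 3 genes. No difference between genotypes in the members was detectable with 13 to 34 such cells per library.

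The pathway lists gave no call in C1q+ cells. Of 16 haem and iron genes, all had UMIs and 5 were tested, including the ferritin chains Ftl1 (3195 UMIs, log2 fold change -0.98, SE 0.32, edgeR adjusted p = 0.279) and Fth1 (2192 UMIs, -0.36, SE 0.27, edgeR adjusted p = 0.714). Of 16 genes of complement and clearance, 8 had UMIs and 2 were tested. These were Cfp, which encodes properdin, a stabilizer of the alternative pathway (170 UMIs, -0.91, SE 0.31, edgeR adjusted p = 0.303), and Calr, which encodes calreticulin (72 UMIs, 0.30, SE 0.38, edgeR adjusted p = 0.826). The proteases that work with C1q, encoded by C1ra and C1s1, had 0 UMIs in C1q+ cells, as had C4b, C3ar1, C5ar1, Cd93 and Gas6.

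Cd3e+ cells below the limit held the members at far lower levels. In KO1 to KO3, C1qa had 2.89, 2.83 and 1.96 UMIs per 1000 of these cells, and in WT1 to WT3 it had 1.87, 1.27 and 2.57. Slc40a1 had 1.24, 2.26 and 2.36 in KO1 to KO3 and 0.622, 4.56 and 3.85 in WT1 to WT3. Vcam1 had 2.75, 1.13 and 3.14 in KO1 to KO3 and 1.87, 5.32 and 5.46 in WT1 to WT3. For all 3 genes the genotypes overlapped, and the rule itself held the summed C1q UMIs of each cell below 3. Cd5l had 9 UMIs in 24570 cells. Members with a UMI were found in between 9 of these cells, for Cd5l, and 441 (1.79%), for Hmox1.

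Hmox1 had more UMIs per Slc40a1 UMI in Cd3e+ cells than in C1q+ cells. It had 22.3, 20.9 and 25.7 UMIs per 1000 Cd3e+ cells below the limit in KO1 to KO3 and 13.1, 19.5 and 28.6 in WT1 to WT3. For every 100 UMIs of Slc40a1 there were 238 of Hmox1 in C1q+ cells, with libraries between 148 and 305, and 923 in Cd3e+ cells, with libraries between 428 and 2100. No library of one kind of cell overlapped with the other, though the Cd3e+ values rest on 60 Slc40a1 UMIs in all, with 1 in WT1. The rule separates these cells, so no test was made. The ratio in C1q+ and then Cd3e+ cells also rose for Vcam1 (91.8 and 135), Apoe (169 and 353), Fcer1g (166 and 253) and Lyz2 (24.1 and 172). It fell for Cd5l (35.8 and 15). For each of these genes the libraries of the kinds of cell overlapped. Of the 554 Hmox1 UMIs, 458 lay in Cd3e+ cells without any C1q UMI, which were 24420 of the 24570 cells. Those cells had a mean over 6 libraries of 18.2 Hmox1 UMIs per 1000 cells. The 150 cells with 1 or 2 C1q UMIs had 646. Of the 212 Apoe UMIs, 173 likewise lay in cells without a C1q UMI.

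Among Cd3e+ cells, Hmox1 was counted by kind of T cell, as a description. Cells with less than 10% ribosomal protein UMIs were set apart first. Of the rest, cells with a UMI of Foxp3, the factor of regulatory T cells, came next. Then came those with at least 3 summed Ccl5 and Nkg7 UMIs. The Foxp3+ cells so defined had 33.1, 39.3 and 43.9 Hmox1 UMIs per 1000 cells in KO1 to KO3 and 9.62, 33.4 and 80.6 in WT1 to WT3. Other Cd3e+ cells, outside the low ribosomal and Ccl5 or Nkg7 groups, had 21.0, 19.7 and 25.5 in KO1 to KO3 and 11.7, 17.7 and 30.4 in WT1 to WT3. The Foxp3+ cells were higher in 5 of 6 libraries, the exception being WT1, with 104 Foxp3+ cells outside the low ribosomal group. With each cell thinned to 1500 UMIs, which left out 1252 of the Cd3e+ cells below the limit, Hmox1 was found in 1.12% ± 0.289 (SD, n = 6 libraries) of Foxp3+ cells, 1.15% ± 0.704 (SD, n = 6) of cells with Ccl5 or Nkg7, and 0.581% ± 0.153 (SD, n = 6) of other Cd3e+ cells. Unthinned, 3.66%, 3.56% and 1.63% had a UMI, at median depths of 4812, 4827 and 4938.5 UMIs. Thinned, Hmox1 was in 0.713% of the low ribosomal cells and 0.753% of the remaining cells without Cd3e (means of 6 libraries). Outside C1q, thinned Foxp3+ cells also exceeded other Cd3e+ cells for Apoe (0.478% and 0.279%) and Vcam1 (0.193% and 0.0637%). Slc40a1 (0.0897% and 0.0822%) and Fcer1g (0.107% and 0.0978%) were close, Lyz2 was lower (0.0775% and 0.0930%) and Cd5l was in neither. These rest on at most 10 Foxp3+ cells per gene. The part of free RNA was not tested. Of 86 thinned B cell-like cells 0 had Hmox1, which allows a share of up to 3.49%, so these cells were too few to set a background below that share.

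Apoe, unlike Hmox1, was detected in B cell-like cells. It had 42 UMIs in 20 of the 90 B cell-like cells, defined by at least 3 Cd79a and Ms4a1 UMIs and no Cd3e, where Hmox1, Vcam1 and Fcer1g had 0. In Cd3e+ cells below the limit Apoe had 7.42, 12.4 and 5.50 UMIs per 1000 cells in KO1 to KO3 and 8.71, 8.11 and 12.8 in WT1 to WT3, and the genotypes overlapped.

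Between genotypes, Lyz2 was the only member called in Cd3e+ cells. It passed the filter on low counts only through the H2-O KO libraries, where it was high. edgeR's quasi-likelihood test called 3164 of 12235 genes there (25.9%), 1355 higher in H2-O KO (11.1%) and 1809 lower (14.8%), at a Benjamini-Hochberg adjusted p under 0.05. With the number of cells in place of the UMI total as library size, 167 genes were called, 52 higher and 115 lower, and 1302 were called without KO1 and 1861 without WT1.

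Lyz2 had 38, 31 and 24 UMIs in the Cd3e+ cells below the limit of KO1 to KO3 and 0, 9 and 1 in those of WT1 to WT3. In CPM these were 1.05, 1.74 and 1.13 in KO1 to KO3 against 0, 0.431 and 0.0780 in WT1 to WT3. The log2 fold change was 2.43 (SE 0.59, edgeR adjusted p = 0.0169), without the filter on low counts it was 2.46 (edgeR adjusted p = 0.00121), and over the alternatives the adjusted p ran from 0.000871 to 0.0517. Without KO2 the call was lost (2.22, edgeR adjusted p = 0.0517), and without WT2 the log2 fold change was 4.55. The UMIs lay in 61 of 24570 cells, of which 48 had 1, and the fullest cell, in KO1, had 15.

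Most Lyz2 RNA lay in a few cells that were mostly neither C1q+ nor Cd3e+. Cells with at least 5 Lyz2 UMIs, a limit chosen after the values were seen, numbered 10, 3 and 7 in KO1 to KO3 and 2, 2 and 1 in WT1 to WT3. These 25 cells held 1735 of the 1844 Lyz2 UMIs (94.1%), and 5 of them were C1q+ and 5 had Cd3e. Those with Cd3e numbered 2, 1 and 2 in KO1 to KO3 and 0, 0 and 0 in WT1 to WT3. The fullest Cd3e+ cell below the limit had 15, 6 and 7 Lyz2 UMIs in KO1 to KO3 and 0, 4 and 1 in WT1 to WT3. Over all 25 Lyz2-rich cells there were 205 UMIs of the monocyte gene Ly6c2, 214 of Plac8 and 301 of Fcer1g, but 5 of Slc40a1 and 3 of Cd5l. UMIs of the neutrophil genes S100a8 (125) and S100a9 (188) were found in the Lyz2-rich cells of KO3 and in those of no other library. In Cd3e+ cells below the limit the 5 neutrophil genes had 218 UMIs. They stood at 10.0 CPM in WT2 and at no more than 0.156 CPM in any other library. The Lyz2 UMIs of the Lyz2-rich cells per 1000 kept cells were 91.0, 111 and 29.1 in KO1 to KO3 and 38.5, 35.2 and 33.6 in WT1 to WT3, so the genotypes overlapped. The part of Lyz2-rich cells in the Lyz2 level of Cd3e+ cells was not tested.

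The other 8 members tested were not called in Cd3e+ cells. They include the C1q genes, whose summed UMIs the rule held below 3 in each of these cells. Slc40a1 stood at a log2 fold change of -0.84 (SE 0.53, edgeR adjusted p = 0.288), Vcam1 at -0.88 (SE 0.48, edgeR adjusted p = 0.211) and Hmox1 at 0.11 (SE 0.28, edgeR adjusted p = 0.813). The log2 fold changes of C1qa (0.43), C1qb (0.090) and C1qc (-0.48) are a description only. Fcer1g stood at 0.54 (SE 0.42, edgeR adjusted p = 0.395), with 7.56, 6.79 and 6.29 UMIs per 1000 cells in KO1 to KO3 and 1.87, 3.55 and 7.71 in WT1 to WT3. WT3 lay above all H2-O KO libraries, and without it Fcer1g was called (1.28, edgeR adjusted p = 0.0364). Over all genes the test recovered 79.6% of the 196 genes changed 2-fold and tested in simulated counts. Those genes were drawn at random from all levels. The share therefore does not give the recovery for the members, among them Slc40a1 with 60 UMIs and Vcam1 with 81.

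**Figure D5:**
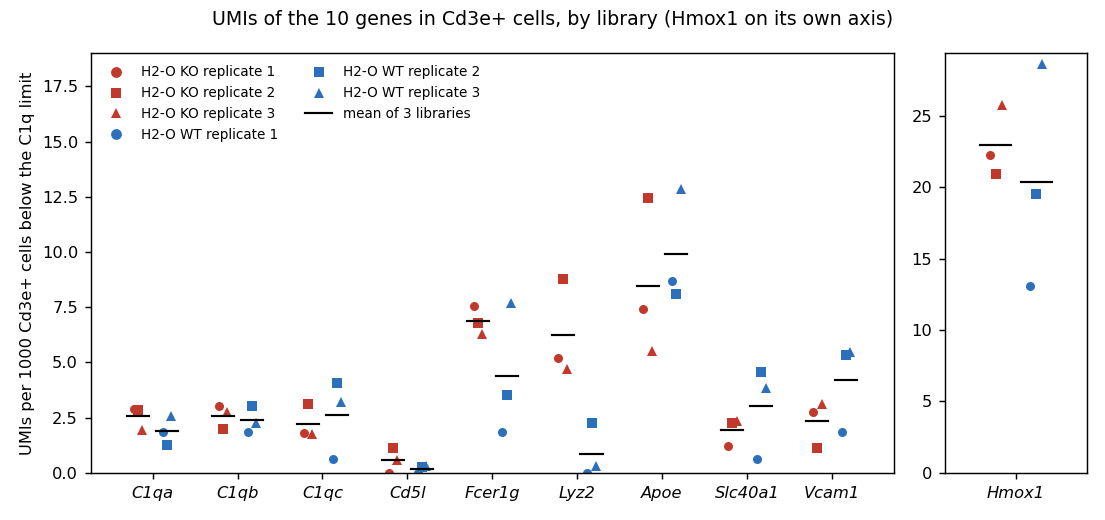
UMIs per 1000 Cd3e+ cells below the C1q limit (linear axes from 0) of the 10 genes in the 6 libraries, with the mean of 3 libraries per genotype as a line and Hmox1 on its own axis. For Lyz2 the H2-O KO libraries lay from 4.71 to 8.76 and the H2-O WT libraries from 0 to 2.28. How many of all genes separate the genotypes in this way was not counted.

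Some haem and iron genes differed between genotypes in the Cd3e+ cells by small amounts, and the number called depended on the setting. Of 16 haem and iron genes 13 were tested in Cd3e+ cells, and 4 rose and 3 fell in H2-O KO, or 53.8% called beside 25.9% of all genes. The T cell list had 57.1% called, of 7 genes tested, so such a share was not particular to the haem and iron genes. The haem and iron genes that rose were Fth1 (log2 fold change 0.26, edgeR adjusted p = 0.0372), the biliverdin reductase genes Blvra (0.27) and Blvrb (0.40), and the haem transporter gene Slc48a1 (0.29). Those that fell were Ireb2, an RNA-binding regulator of iron genes (-0.53, edgeR adjusted p = 0.00296), the transferrin receptor gene Tfrc (-0.32) and Bach1, a haem-sensing repressor of Hmox1 (-0.26). Ftl1 stood at 0.18 (edgeR adjusted p = 0.0816). Ireb2 alone of the haem and iron list was still called in cells with at least 10% ribosomal protein UMIs, and in cells with at least 2000 UMIs. The same held without KO1 and without WT1. Over all genes, 834 of 12081 and 1841 of 12120 were called in those cells. Without KO1 it was 1302 of 12391, and without WT1 1861 of 12485. With cell numbers as library size no gene of the list was called, beside 167 of 12235. DESeq2 called Fth1, Ftl1 and Ireb2 alone, beside 2703 of 19599 genes. With plain library totals Blvra and Slc48a1 were lost, beside 3105 of 12235 genes called. Of the complement list 5 genes were tested and 1 fell, Calr (-0.23, edgeR adjusted p = 0.0274), or 20% beside the same 25.9%, and of the red pulp macrophage list 4 were tested and none was called.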

How the data were processed

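The deposited values are whole-number UMI counts per gene and barcode for the cells that the authors' run of Cell Ranger 6.1.2 on mm10 called, without normalization, from 10x Genomics 5' libraries of 3 mice per genotype. Each library is 1 mouse, and its cells are not replicates. The study's filters were applied: a minimum of 200 genes, a maximum of 12000 UMIs and no more than 5% mitochondrial UMIs (13 genes). That maximum was the only step against doublets. Free RNA was not subtracted.

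The 10 genes were matched by symbol, and the members, marker lists and limits were chosen with earlier results of these data known. UMIs were summed per library over C1q+ cells and over Cd3e+ cells below the limit and tested with edgeR 4.0.16 (filterByExpr, TMM, quasi-likelihood test, Benjamini-Hochberg adjustment over all genes), with DESeq2 1.42.0 as an alternative. SEs were derived from the F statistic and the log2 fold change. C1q+ and Cd3e+ cells were not tested against each other, since the rule separates them. Shares of cells were compared over libraries by an exact two-sided permutation test of 20 assignments. Named besides the members were the 2 genes of each marker list with the largest CPM in C1q+ cells, the 10 genes with the largest share of UMIs in C1q+ cells and H2-Oa, and further genes of these lists, Igfbp4 and the genes of Lyz2-rich cells were named after their values were seen. Replicate numbers were not used to pair mice. Positions were read from the GRCm38 gene annotation, which held 32158 of the 32285 gene identifiers. The fits were tested on simulated counts with 200 genes changed 2-fold, with 12 false calls in Cd3e+ and 7 in C1q+ cells. Depth per library is given in the report.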

Additional observations from a re-analysis of the deposited data

Results flagged for a closer look

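C1q+ barcodes were also found among the barcodes that the cell filters removed, which the comparisons above left out, other than the share of C1q+ cells over all called barcodes and the alternatives with wider filters. They made up 0.763% ± 0.481 (SD, n = 3) of the removed barcodes from H2-O KO mice, where H2-O WT mice had 0.247% ± 0.226 (SD, n = 3), a mean above the highest H2-O WT library. By library the shares were 1.22%, 0.800% and 0.265% in KO1 to KO3, from 7 of 572, 3 of 375 and 8 of 3021 removed barcodes. In WT1 to WT3 they were 0.144%, 0.507% and 0.0913%, from 2 of 1388, 4 of 789 and 2 of 2190, so the genotypes overlapped. The number of removed barcodes thus differed widely between libraries. Of all called C1q+ barcodes, the filters removed 18 of 131 in H2-O KO and 8 of 85 in H2-O WT. Of the 26 removed C1q+ barcodes 22 were over the mitochondrial limit and 4 over the maximum of UMIs. The difference between genotypes was not tested.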

How the results depend on the processing

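The share of C1q+ cells turned its sign, to 0.00959 percentage points with a C1q limit of 5, 0.0892 over all called barcodes and 0.102 with up to 10% mitochondrial UMIs, and ranged from -0.108 to 0.0802 with each library left out. In cells with at least 10% ribosomal protein UMIs it was -0.416 (exact permutation p = 0.3), the widest move. No p went below 0.2. In Cd3e+ cells the count of called genes moved from 3164 to 834 in cells with at least 10% ribosomal protein UMIs, 1841 in cells with at least 2000 UMIs and 167 with cell numbers as library size, and ranged from 1302 (without KO1) to 3346 with each library left out. It was 1861 without WT1. In C1q+ cells 2 genes were called with plain library totals, 2 over all called barcodes, 2 with a C1q limit of 2, 3 with up to 10% mitochondrial UMIs, 7 in cells with at least 10% ribosomal protein UMIs, 14 without a low-count filter and 0 in cells without Cd3e (edgeR). With each library left out the count ranged from 0 (without KO2) to 6 (without KO3). The cause was not tested.

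Of 143 member values in Cd3e+ cells 135 kept sign and call. With each library left out C1qb ranged from -0.019 to 0.26, Hmox1 from -0.072 to 0.51 and Apoe from -0.61 to 0.014 and thus turned sign. Fcer1g was also called over all called barcodes (1.17, edgeR adjusted p = 0.0438), and Lyz2 had no adjusted p from DESeq2. Of 144 in C1q+ cells 139 kept both, and in cells without Cd3e C1qa (0.052), C1qb (0.25), C1qc (0.18), Cd5l (0.13) and Fcer1g (0.34) turned. Both counts of member values include the C1q genes, whose UMIs the rule used. Correlations of same-numbered deviations from the genotype means were -0.068, 0.167 and 0.374, with up to 0.376 in pairs of unlike number. With 3 libraries per genotype they cannot decide whether the replicate numbers pair the mice. With the replicate number as a block, 3877 genes were called in Cd3e+ cells and 0 in C1q+ cells (edgeR, 70 at an unadjusted p under 0.05), and Lyz2 had a log2 fold change of 2.66. Depth limits C1q+ cells most: 123 of 190 had under 1500 UMIs.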
